A study of Mus musculus with 13 samples.

Results

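The troponin genes counted here were Tnnt1, Tnnt2, Tnnc1, Tnni1 and Tnni3, which encode subunits of the calcium-sensing complex on the thin filament of striated muscle. They were taken by gene symbol from the broader of the deposited count tables, where they make up 5 of 55536 genes, and 4 of the 5 passed the filter on low counts that left 16125 genes to test, Tnni1 being under it. The 5 symbols were chosen by name with values of these libraries in view, and which of those values were weighed is not recorded, so every level and difference below is a description and supports nothing by itself. The libraries held RNA of nuclei from heart ventricles of C57BL/6J mice collected on postnatal day 56, sorted for Pcm1, a protein that marks cardiomyocyte nuclei. All animals had been given AAV serotype 6 by 1 intraperitoneal injection on postnatal day 1. The vector carried human progesterone receptor, a steroid-activated transcription factor, in females (PGR_F, 3 libraries, numbered 1, 2 and 4) and males (PGR_M, 3 libraries), or had no insert in females (Con_F, 4 libraries) and males (Con_M, 3 libraries). Each library pooled 3 to 6 whole ventricles, and the labels name neither the promoter of the vector nor litters, so the p-values measure the spread between these pools.

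Contraction in striated muscle is switched by troponin. Calcium binds troponin C, troponin I then releases its hold on actin, and troponin T passes the change on to tropomyosin. Tnnc1 encodes the troponin C of both heart and slow skeletal muscle. Tnni3 encodes the cardiac troponin I of the adult heart, and Tnni1 encodes the slow skeletal troponin I that the fetal heart uses before Tnni3 takes its place around birth. Tnnt2 encodes cardiac troponin T, whose fetal and adult forms arise by splicing of 1 gene and are not told apart by a count per gene, and Tnnt1 encodes the slow skeletal troponin T. The fast skeletal subunits come from Tnnc2, Tnni2 and Tnnt3.

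The genes lie as neighbours in the genome, in the pairing of a troponin I gene with a troponin T gene. In GRCm38 coordinates of the deposited table, Tnni3 (ENSMUSG00000035458) spans chromosome 7 from 4518305 to 4524229 and Tnnt1 (ENSMUSG00000064179) spans chromosome 7 from 4504570 to 4516382, both on the minus strand, so that Tnnt1 begins 1922 bases beyond the end of Tnni3. Tnni1 (ENSMUSG00000026418, chromosome 1, 135779434 to 135810989) and Tnnt2 (ENSMUSG00000026414, chromosome 1, 135836354 to 135852260) both lie on the plus strand with Lad1 between them. Tnnc1 (ENSMUSG00000091898, chromosome 14, 31208312 to 31211729, plus strand) lies wholly inside Nisch, which is read from the opposite strand. In GENCODE annotation of the same build, exons cover 48.7% of the span of Tnnt2, 34.8% of Tnni3, 30.5% of Tnnc1, 18.7% of Tnnt1 and 11.4% of Tnni1, and the deposited lengths are whole spans, so intron reads are part of every value.

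The promoter windows of the slow skeletal troponin T gene, of its cardiac counterpart and of the troponin C gene are printed because the fitted differences of these genes between the vectors, given below, ran from the largest to the smallest of the family. Each is the 250 bases before the start of the gene in RefSeq (GRCm38.p6), 5′ to 3′ on the strand of the gene, at chr7:4515976-4516225 for Tnnt1, chr1:135836084-135836333 for Tnnt2 and chr14:31208062-31208311 for Tnnc1. The capitals mark 3 motifs searched on both strands, the MCAT element (CATTCC, bound by TEAD factors), the GATA element (GATAA) and the TATA box (TATAAA). Other forms of the TATA box were not searched.
Tnnt1: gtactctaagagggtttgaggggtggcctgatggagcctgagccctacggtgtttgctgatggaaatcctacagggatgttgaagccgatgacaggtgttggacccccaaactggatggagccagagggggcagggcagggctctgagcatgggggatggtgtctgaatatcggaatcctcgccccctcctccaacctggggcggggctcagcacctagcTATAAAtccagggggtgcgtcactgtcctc
Tnnt2: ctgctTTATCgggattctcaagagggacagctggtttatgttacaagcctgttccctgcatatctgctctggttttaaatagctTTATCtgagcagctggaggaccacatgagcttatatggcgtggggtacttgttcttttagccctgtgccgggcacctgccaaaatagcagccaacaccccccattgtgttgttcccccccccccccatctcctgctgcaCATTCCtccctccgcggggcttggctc
Tnnc1: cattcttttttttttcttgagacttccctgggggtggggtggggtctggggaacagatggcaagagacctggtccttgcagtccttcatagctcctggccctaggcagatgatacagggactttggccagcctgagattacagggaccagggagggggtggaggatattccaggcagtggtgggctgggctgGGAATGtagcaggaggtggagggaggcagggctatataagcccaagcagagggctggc
The Tnnt1 window held a TATAAA 30 to 25 bases before the start, a motif in 12.4% of the 32817 RefSeq windows of this length. The Tnnt2 window held a CATTCC 27 to 22 bases before the start and GATAA on the reverse strand at 245 to 241 and at 166 to 162. The Tnnc1 window held CATTCC on the reverse strand at 58 to 53. CATTCC was in 12.6% and GATAA in 22.6% of all windows. None of the 3 motifs was in the windows of Tnni1 and Tnni3, whose RefSeq starts lie 19987 and 1701 bases inside the deposited spans. That of Tnnt1 lies 407 bases inside, so its printed window is within the counted span. The E-box (CANNTG) was in all 5 windows and in 66.2% of all windows. A full element of the kind bound by progesterone and other steroid receptors (GNACANNNTGTNC) was in none of the 5 and in 0.387% of all windows, and neither AAGTG, the core bound by NKX2-5, nor the MEF2 and CArG elements were in any of the 5. No motif overlapped another. A match describes letters and is not a bound site.

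Total counts were 31.8 to 55.5 M in PGR_F, 37.6 to 58.9 M in Con_F, 45.3 to 57.9 M in PGR_M and 33.3 to 86.3 M in Con_M. The 9 cardiomyocyte markers summed to 73940 to 93113 CPM (counts per M counts of the library, scaled with TMM factors) over the 13 libraries and had counts in every library. The sum of 8 fibroblast markers averaged 72.8 CPM in PGR_F, 85.8 in Con_F, 51.8 in PGR_M and 44.3 in Con_M. That of 8 endothelial markers averaged 48.6 CPM in PGR_F, 57.5 in Con_F, 43.0 in PGR_M and 36.4 in Con_M. The part of these cells in the troponin values was not tested. Of 13 skeletal muscle markers, the fast and neonatal myosin genes Myh1, Myh2, Myh4 and Myh8 and the fast troponin I gene Tnni2 had at most 3 counts in any library. Of the female libraries, Con_F 4 stood apart, with Y-linked genes at 1.01% of the male mean against 0.0112% to 0.112% in the other 6, and the calls and values that turned on it are also given without it.

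The cardiac subunits were the abundant ones. Set per kb of gene span, which allows levels of different genes to be compared, the mean level over the 13 libraries was 259 CPM per kb for Tnnt2, 58.1 for Tnni3, 23.1 for Tnnc1 and 0.713 for Tnnt1. The level was 0.00177 CPM per kb for Tnni1. Among the fast skeletal genes the mean level was 0.0163 CPM per kb for Tnnc2, 0.0116 for Tnnt3 and 0.00526 for Tnni2. The ranges of Tnnt2, Tnni3, Tnnc1 and Tnnt1 did not overlap in these libraries, and the lowest 4 genes overlapped in their levels.

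**Figure D1:**
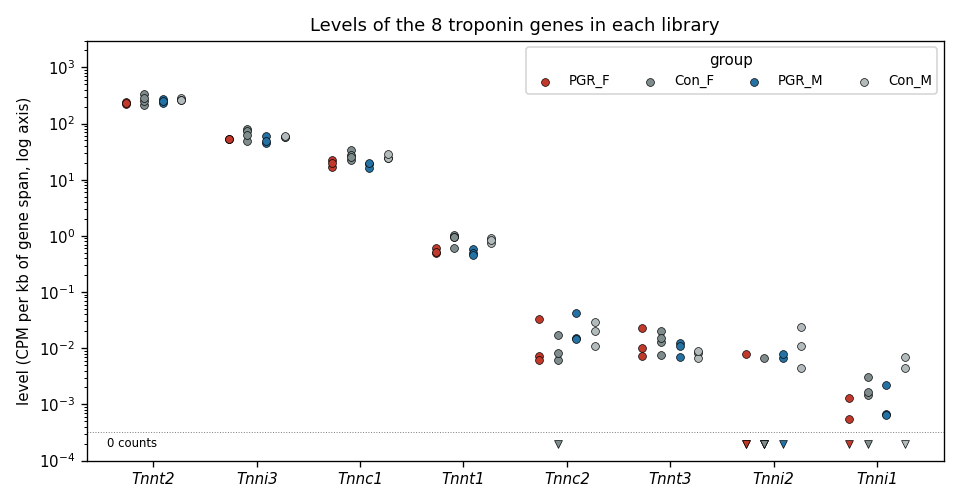
Levels of the 8 troponin genes in CPM per kb of gene span on a log axis, each point 1 library and triangles libraries with 0 counts. Tnnt2, Tnni3 and Tnnc1 lie above Tnnt1, whose mean over all libraries is 0.713 CPM per kb, and the slow skeletal troponin I gene Tnni1 and the fast skeletal genes lie below it.

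The subunits of 1 complex differed in RNA level although they are built into it in equal number. The level of Tnnt2 per kb was a median of 4.45 times that of Tnni3 (range 3.52 to 5.18 over 13 libraries) and 11.2 times that of Tnnc1 (9.10 to 14.8). The level of Tnni3 per kb was 2.44 times that of Tnnc1 (2.13 to 3.14). Each of these ratios was above 1 in every library. The level of Tnnt2 per kb was 402 times that of Tnnt1 (228 to 542). Per kb of exon, added as an alternative after the values were seen, the mean levels were 531 CPM for Tnnt2, 167 for Tnni3, 75.7 for Tnnc1, 3.82 for Tnnt1 and 0.0155 for Tnni1, in the same order.

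The first comparison was that of the PGR vector with the empty vector in each sex, which asks what the receptor changes in cardiomyocyte nuclei. Tnnt1, the slow skeletal troponin T gene, was lower under the PGR vector by the most among the 4 tested, at close to the same size in both sexes, then Tnnc1, then Tnni3, with Tnnt2 nearest to no difference. None of the 4 passed an adjusted p of 0.05 in edgeR's quasi-likelihood test in females, in males or averaged over the sexes. Over all genes that rule called 0% of 16125 in females, 0% in males and 0.0062% (1 gene) averaged over the sexes. At an unadjusted p under 0.05, Tnnt1, Tnnc1 and Tnni3 were counted in females and in the average and Tnnt1 and Tnnc1 in males, beside 10.9%, 14.8% and 7.48% of all genes in the same 3 comparisons. With DESeq2, 1 of the 4 (Tnnt1) was called in females among 81 genes, 0 in males among 27, and 2 (Tnnt1 and Tnnc1) in the average among 339. In bulk libraries, fewer cells of a type and less RNA per cell cannot be told apart.

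Tnnt1 had 5.96, 7.26 and 5.99 CPM in PGR_F 1, 2 and 4, against 12.3, 11.2, 11.4 and 7.14 CPM in Con_F 1 to 4. In males it had 7.01, 5.85 and 5.50 CPM in PGR_M 1 to 3, against 8.93, 11.1 and 9.90 CPM in Con_M 1 to 3. All PGR_M libraries were below all Con_M libraries, and the female groups overlapped only because Con_F 4 was a little below PGR_F 2. Of all tested genes, 8.48% had every PGR_M library below every Con_M library, 4.07% had every PGR_F library below every Con_F library, 0.682% had both and 0.36% had all 6 PGR libraries below all 7 Con libraries. Tnnt1 and Tnnc1 were in the first of these counts and no troponin gene was in the others. Tnnt1 averaged 6.40 ± 0.743 CPM in PGR_F (SD, n = 3) and 10.5 ± 2.30 CPM in Con_F (n = 4), and 6.12 ± 0.791 CPM in PGR_M and 9.96 ± 1.06 CPM in Con_M (n = 3 each). By mean level the order was Con_F, Con_M, PGR_F and PGR_M, and the only neighbours in it whose libraries did not overlap were Con_M and PGR_F. In females Tnnt1 differed by -0.72 on the log2 scale (SE 0.16, edgeR adjusted p = 0.225), and in males by -0.70 (SE 0.17, adjusted p = 0.465).

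Averaged over the sexes, the log2 fold change of Tnnt1 was -0.71 (SE 0.12), a fold of 0.613, with an edgeR adjusted p of 0.0607 and the 5th smallest p of all genes tested. Its edgeR call turned on the filter on low counts and on Con_F 4, the control library with the lowest Tnnt1. With no filter, the edgeR adjusted p was 0.000308 in the average, when 146 genes were called in all, and 0.0240 in females, when 25 were. Without Con_F 4 the averaged log2 fold change was -0.78 with an edgeR adjusted p of 0.00300, when 338 genes were called in all, and that in females was -0.86 with an adjusted p of 0.0150, when 20 were. Over all alternatives the edgeR, DESeq2 and limma-voom adjusted p of the average ran from 2.98e-05 to 0.247 and that in females from 0.0126 to 0.675, while the log2 fold change stayed below 0.

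Skeletal muscle markers were read beside Tnnt1. The list is mostly of fast and general skeletal muscle genes, with Mybpc1, the slow isoform of myosin-binding protein C, as its slow gene. The 13 markers summed to 4.62 to 5.68 CPM in PGR_F against 6.69 to 8.73 CPM in Con_F, and to 6.94 to 8.62 CPM in PGR_M against 7.50 to 10.4 CPM in Con_M. The sum was thus lower in every PGR_F library than in any Con_F library, and the male groups overlapped. Most of it was Mybpc2, the fast isoform of myosin-binding protein C, with 4.19 ± 0.405 CPM in PGR_F (SD, n = 3), 6.56 ± 1.01 CPM in Con_F (n = 4), 5.42 ± 0.588 CPM in PGR_M and 6.38 ± 1.41 CPM in Con_M (n = 3 each). Mybpc1 had 0.164 ± 0.0546 CPM in PGR_F and 0.165 ± 0.0653 CPM in Con_F, and 0.254 ± 0.0758 CPM in PGR_M and 0.303 ± 0.0434 CPM in Con_M. The calcium pump gene Atp2a1 had 0.430 CPM in PGR_F and 0.366 CPM in Con_F, and 0.456 CPM in PGR_M and 0.465 CPM in Con_M, so the markers did not share a direction in females. The ryanodine receptor gene Ryr1 had 0.136 CPM in PGR_F and 0.392 CPM in Con_F, and 1.23 CPM in PGR_M and 1.22 CPM in Con_M. 5 of the 13 markers were tested and none was called in the vector comparisons by edgeR. In females 4 of the 5 were below 0, beside 49.3% of all genes. In males 3 of the 5 were below 0, beside 49.9% of all genes. The part of skeletal muscle in the Tnnt1 values was not tested.

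**Figure D2:**
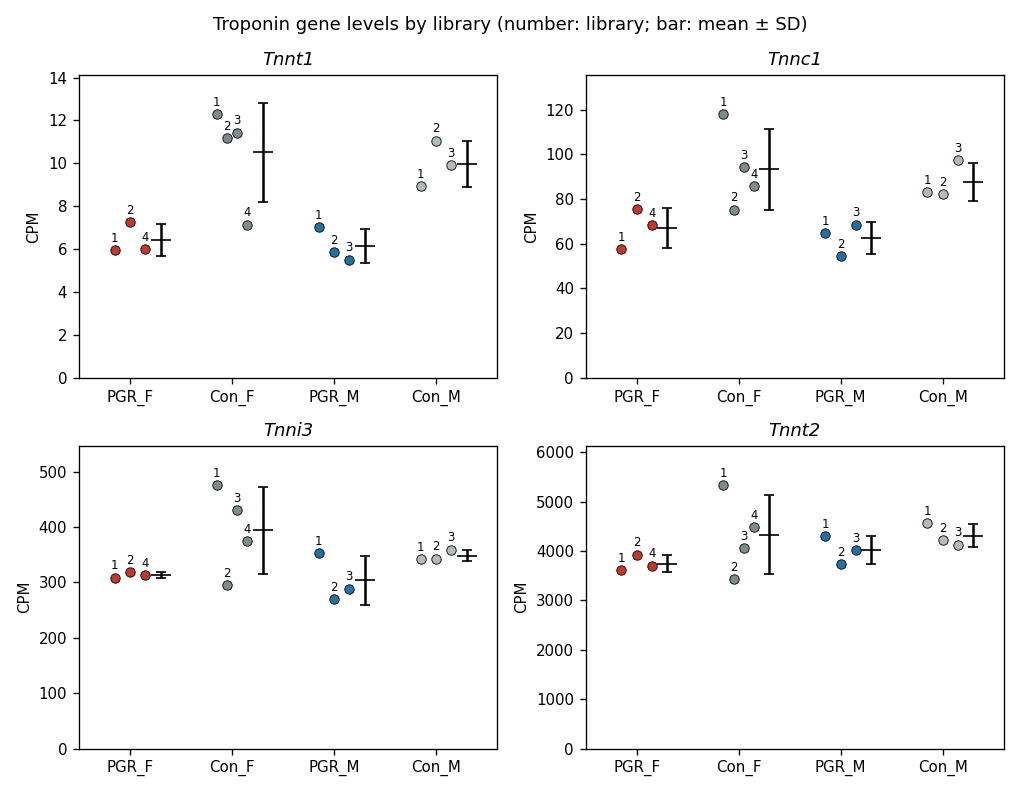
CPM of the 4 tested troponin genes, each numbered point 1 library and the bar beside it the group mean with its SD. In the Tnnt1 and Tnnc1 panels all PGR_M points lie below all Con_M points, and Con_F 4 (7.14 CPM) lies with the PGR_F points for Tnnt1.

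Tnnc1, the troponin C gene, had 57.5, 75.5 and 68.4 CPM in PGR_F 1, 2 and 4, against 118, 75.2, 94.4 and 85.8 CPM in Con_F 1 to 4. It had 64.8, 54.4 and 68.5 CPM in PGR_M 1 to 3, against 83.1, 82.0 and 97.5 CPM in Con_M 1 to 3. The male groups did not overlap, and in females only Con_F 2 reached into the range of PGR_F. The group means were 67.1 ± 9.09 CPM in PGR_F (SD, n = 3) and 93.3 ± 18.2 CPM in Con_F (n = 4), and 62.5 ± 7.30 CPM in PGR_M and 87.5 ± 8.62 CPM in Con_M (n = 3 each). The order of the means was that of Tnnt1, again with a gap between libraries only from Con_M to PGR_F. The log2 fold change was -0.48 in females (SE 0.14, edgeR adjusted p = 0.311), -0.48 in males (SE 0.15, adjusted p = 0.602) and -0.48 averaged (SE 0.10, adjusted p = 0.0902). Without Con_F 4 the averaged value was -0.50, with an edgeR adjusted p of 0.0394, and over all alternatives the adjusted p ran from 0.00307 to 0.265.

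Nisch, the gene around Tnnc1, lies on the opposite strand. The libraries were directional and the deposited table is named as counted by the reverse strand, a setting under which reads of the overlapping pair are told apart. It encodes an imidazoline-binding membrane protein and had 195 CPM in PGR_F, 216 in Con_F, 198 in PGR_M and 210 in Con_M. Its averaged log2 fold change was -0.12 (SE 0.06, edgeR adjusted p = 0.393), nearer to 0 than that of Tnnc1.

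Tnni3, the adult cardiac troponin I gene, had 308, 318 and 313 CPM in PGR_F 1, 2 and 4, against 476, 295, 430 and 375 CPM in Con_F 1 to 4. It had 353, 270 and 289 CPM in PGR_M 1 to 3, against 342, 343 and 359 CPM in Con_M 1 to 3. Groups overlapped in both sexes, through Con_F 2 in females and PGR_M 1 in males, and the 3 PGR_F libraries were the closest to each other of any group. Tnni3 averaged 313 ± 4.96 CPM in PGR_F (SD, n = 3) and 394 ± 78.1 CPM in Con_F (n = 4), and 304 ± 43.8 CPM in PGR_M and 348 ± 9.82 CPM in Con_M (n = 3 each). In the order Con_F, Con_M, PGR_F and PGR_M, only Con_M and PGR_F were neighbours with no overlap. The log2 fold change of Tnni3 was -0.33 in females (SE 0.13, edgeR adjusted p = 0.400), -0.20 in males (SE 0.14, adjusted p = 0.788) and -0.26 averaged (SE 0.10, adjusted p = 0.237).

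Tnnt2, the cardiac troponin T gene and the most abundant of the family, had 3611, 3928 and 3706 CPM in PGR_F 1, 2 and 4, against 5336, 3426, 4065 and 4481 CPM in Con_F 1 to 4. It had 4308, 3735 and 4016 CPM in PGR_M 1 to 3, against 4569, 4223 and 4129 CPM in Con_M 1 to 3. The groups overlapped in both sexes, and Con_F alone held both the lowest and the highest library of all 13. Tnnt2 averaged 3748 ± 163 CPM in PGR_F (SD, n = 3) and 4327 ± 800 CPM in Con_F (n = 4), and 4020 ± 286 CPM in PGR_M and 4307 ± 232 CPM in Con_M (n = 3 each). No neighbours in the order Con_F, Con_M, PGR_M and PGR_F were free of overlap. The log2 fold change of Tnnt2 was -0.21 in females (SE 0.12, edgeR adjusted p = 0.553), -0.10 in males (SE 0.13, adjusted p = 0.899) and -0.15 averaged (SE 0.09, adjusted p = 0.436), with a 95% interval of -0.33 to 0.02 for the average. Without Con_F 1, the highest control library, it was -0.090 in females and -0.093 averaged.

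**Figure D3:**
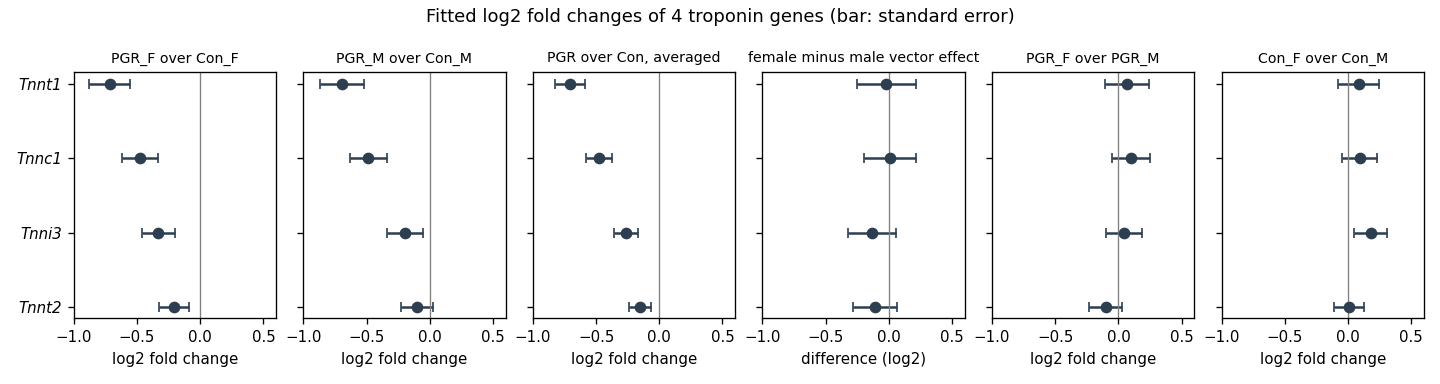
Log2 fold changes of the 4 tested troponin genes in each of the 6 comparisons, with the standard error of the edgeR fit as the bar. The averaged vector effect runs from -0.71 for Tnnt1 to -0.15 for Tnnt2, and the values that compare the sexes lie between -0.13 and 0.18.

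The vector effect did not differ detectably between the sexes for any of the 4. The female minus male difference of the log2 fold change was -0.02 for Tnnt1 (95% interval -0.48 to 0.44), 0.01 for Tnnc1 (-0.39 to 0.41), -0.13 for Tnni3 (-0.51 to 0.24) and -0.11 for Tnnt2 (-0.45 to 0.24). For Tnni3 and Tnnt2 the intervals hold differences larger in size than the averaged effects of -0.26 and -0.15. For Tnnc1 they hold differences close in size to its averaged effect of -0.48. The edgeR adjusted p was 1.00 for all 4, and 0% of all genes passed for this difference, with 525 genes (3.26%) at an unadjusted p under 0.05 and 1 called by DESeq2.

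The sexes were compared under each vector next, where the question is whether troponin RNA differs between female and male ventricles. None of the 4 genes was called by edgeR or DESeq2 under either vector, and none was at an unadjusted p under 0.05 in edgeR. In all, 0.143% of genes were called between PGR_F and PGR_M (7.25% at an unadjusted p under 0.05) and 0.229% between Con_F and Con_M (12.4%). DESeq2 called 76 and 224 genes in the same comparisons. Between PGR_F and PGR_M the log2 fold change, female over male, was 0.06 for Tnnt1 (SE 0.17), 0.10 for Tnnc1 (SE 0.15), 0.04 for Tnni3 (SE 0.14) and -0.10 for Tnnt2 (SE 0.13). Between Con_F and Con_M it was 0.08 for Tnnt1 (SE 0.16), 0.09 for Tnnc1 (SE 0.14), 0.18 for Tnni3 (SE 0.13) and 0.01 for Tnnt2 (SE 0.12). Female and male libraries overlapped for all 4 genes under both vectors.

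The slow and fetal isoforms were then set against the adult cardiac ones within each library. The share of slow skeletal troponin T was lower under the PGR vector in every male library, and in females the groups overlapped through 1 control library. Tnnt1 had 1.65, 1.85 and 1.62 counts per 1000 counts of Tnnt2 in PGR_F 1, 2 and 4, against 2.30, 3.26, 2.81 and 1.59 in Con_F 1 to 4. In males it had 1.63, 1.57 and 1.37 per 1000 in PGR_M 1 to 3, against 1.96, 2.62 and 2.40 in Con_M 1 to 3. Every PGR_M library was below every Con_M library, and in females Con_F 4 was below all PGR_F libraries while the other 3 Con_F libraries were above them. Of single genes, 8.48% separated in this way in males, and the share of gene ratios that do so was not counted. The ratio uses the Tnnt1 counts given above, so its separation is not a second result beside them.

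The share averaged 1.70 ± 0.125 per 1000 in PGR_F (SD, n = 3) and 2.49 ± 0.717 in Con_F (n = 4), and 1.52 ± 0.135 in PGR_M and 2.32 ± 0.337 in Con_M (n = 3 each). The difference of the mean log2 ratio of Tnnt1 to Tnnt2, PGR minus Con, was -0.50 in females and -0.60 in males. With 1 library left out, the female difference ran from -0.70 without Con_F 4 to -0.35 without Con_F 2, and the male one from -0.72 to -0.51. The log2 ratio of Tnnt1 to Tnni3, its neighbour on chromosome 7, differed by -0.38 in females and -0.50 in males. All of these are descriptions of chosen members, and no p is given for them.

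**Figure D4:**
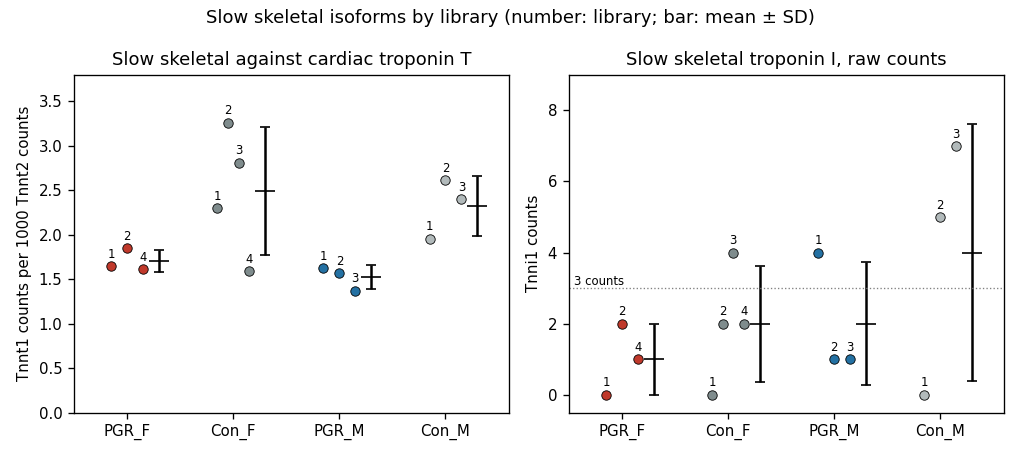
Left, Tnnt1 counts per 1000 Tnnt2 counts, and right, Tnni1 counts, each numbered point 1 library with the group mean and SD beside it. The PGR libraries lie between 1.37 and 1.85 per 1000, all but Con_F 4 of the Con libraries lie above them, and Tnni1 has 0 to 7 counts in any library.

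Slow skeletal troponin I, the fetal isoform, was almost absent. Tnni1 had 0, 2 and 1 counts in PGR_F 1, 2 and 4, against 0, 2, 4 and 2 counts in Con_F 1 to 4, and 4, 1 and 1 counts in PGR_M 1 to 3, against 0, 5 and 7 counts in Con_M 1 to 3. 9 of the 13 libraries were at or under 3 counts and all groups overlapped, so no fold is given. Of the pooled Tnni1 and Tnni3 counts, Tnni1 took 0.00683% in PGR_F (exact 95% interval 0.00141% to 0.0200%) and 0.0111% in Con_F (0.00478% to 0.0218%). It took 0.0128% in PGR_M (0.00468% to 0.0278%) and 0.0227% in Con_M (0.0117% to 0.0396%). The intervals cover counting error only, and those of each pair overlap, so a difference between vectors was not detectable at these counts. The difference of the mean log2 ratio of Tnni1 to Tnni3, PGR minus Con, was -0.20 in females and -0.53 in males with a prior count of 2. With 1 library left out, it ran from -0.63 to 0.038 in females and from -1.31 to -0.026 in males. With a prior count of 5 the female value was 0.022, so no direction is read from it.

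Ratios among the 3 abundant cardiac genes differed by less than the log2 ratio of Tnnt1 to Tnnt2 in each sex. The log2 ratio of Tnni3 to Tnnt2 differed by -0.12 in females and -0.10 in males, with overlap in both sexes. The log2 ratio of Tnnc1 to Tnni3 differed by -0.16 in females and -0.28 in males, and that of Tnnc1 to Tnnt2 by -0.27 in females and -0.39 in males. For both ratios of Tnnc1 the PGR_M libraries were all below the Con_M libraries and the female groups overlapped. Both use the Tnnc1 counts given above, and here too the share of gene ratios that separate was not counted.

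The fast skeletal genes were at counts too low to follow. Tnnt3 (fast troponin T) had 4 to 19 counts per library and differed by 0.13 on the log2 scale in the average (SE 0.32, edgeR adjusted p = 0.889). Tnnc2 (fast troponin C) had 0 to 7 counts and Tnni2 (fast troponin I) 0 to 2 counts, and neither passed the filter.

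The genes beside the members were read to see whether the low Tnnt1 of the PGR libraries extended along chromosome 7. Ppp1r12c, a regulatory subunit of myosin phosphatase that lies 2889 bases beyond Tnnt1 on the same strand, had 37.4 CPM in PGR_F and 47.0 CPM in Con_F, and 35.2 CPM in PGR_M and 41.1 CPM in Con_M. Its averaged log2 fold change was -0.28 (SE 0.09, edgeR adjusted p = 0.183), close to the -0.26 of Tnni3 on the other side of Tnnt1. Lad1, between Tnni1 and Tnnt2, had 20 to 57 counts and an averaged log2 fold change of 0.04 (SE 0.17). Dnaaf3, which overlaps Tnni3 on the same strand, had 2 to 38 counts against 9890 or more of Tnni3.

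Over the 13 libraries the cardiac genes varied together. Pearson's r of log2 CPM was 0.85 between Tnnc1 and Tnni3, 0.78 between Tnnt2 and Tnni3 and 0.70 between Tnnt2 and Tnnc1, and with the group means taken out it was 0.76, 0.81 and 0.73 for the same pairs. For Tnnt1 it was 0.80 with Tnnc1, 0.66 with Tnni3 and 0.40 with Tnnt2, and within groups 0.35, 0.34 and 0.07. Tnnt1 thus shared less of the spread within groups with each of the other 3 than they shared among themselves. The points share libraries and scaling factors, and the correlations are descriptions.

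The genes most like each member were taken as the 3 with the highest Pearson's r over the 13 libraries among 10038 tested genes. For Tnnt1 they were Slc11a2, an iron transporter (r = 0.95), Pfkl, a phosphofructokinase of glycolysis (0.94), and Smarcb1, a chromatin remodelling subunit (0.94). For Tnnt2 they were Surf2 (0.94), the transcription elongation factor Supt6 (0.93) and the small RNA Scarna17 (0.91). For Tnnc1 they included Smg5, of nonsense-mediated decay (0.93), and Grwd1 (0.93). For Tnni3 they were the RNA helicase Dhx16 (0.95), Ino80e, of a chromatin remodeller (0.95), and Dctn1, of the dynein activator (0.94). Of these genes, Pfkl had 26.5 CPM in PGR_F and 36.5 CPM in Con_F, and 26.2 CPM in PGR_M and 32.8 CPM in Con_M, an averaged log2 fold change of -0.39 (SE 0.09). That value was -0.17 (SE 0.06) for Slc11a2, -0.30 (SE 0.07) for Smarcb1 and -0.08 (SE 0.06) for Supt6. The genes were chosen for likeness over PGR and Con libraries together. Their differences between the vectors thus follow in part from the choice and support nothing.

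Lists of genes that work with troponin were read beside the members. In the averaged vector comparison, edgeR called none of the genes of the 5 lists, with 0.0062% of all genes called and 49.0% of all genes below 0. Of the thin filament partners, 17 of 18 were tested, 10 were below 0 and the median log2 fold change was -0.03. Of the kinases and phosphatases that act on troponin, 21 of 21 were tested, 7 were below 0 and the median was 0.05. Of the factors known to act on troponin promoters, 20 of 20 were tested, 11 were below 0 and the median was -0.04. The medians lay near the median of all genes, 0.00. The 4 tested troponin genes were all below 0.

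Within these lists the genes with the smallest p were named. Acta1, skeletal alpha-actin, had 2.28 ± 0.921 CPM in PGR_F (SD, n = 3) and 3.16 ± 0.944 CPM in Con_F (n = 4), and 4.0 ± 0.736 CPM in PGR_M and 6.91 ± 1.00 CPM in Con_M (n = 3 each). Its averaged log2 fold change was -0.62 (SE 0.19, edgeR adjusted p = 0.179), the value nearest to that of Tnnt1 among the partners. The averaged log2 fold change was -0.29 (SE 0.09) for Capzb, of the actin capping protein, and 0.14 (SE 0.08) for Nebl, the cardiac nebulette. It was 0.29 (SE 0.12) for Prkca and 0.23 (SE 0.09) for Prkd1, kinases that phosphorylate troponin I, and -0.15 (SE 0.06) for Ppp1cc, a phosphatase 1 catalytic subunit. It was -0.23 (SE 0.07) for Esrra, an oestrogen-related receptor, -0.12 (SE 0.06) for Yy1 and -0.12 (SE 0.06) for the GATA factor Gata6. None of these passed the adjusted threshold in edgeR.

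Other slow or fetal muscle genes were set against adult ones. The slow or fetal list held myosin, actin and tropomyosin genes of slow, atrial, fetal or smooth muscle. It also held other genes, among them the natriuretic peptide genes Nppa and Nppb, the smooth muscle gene Tagln and the skeletal calsequestrin gene Casq1. It is thus not a list of slow or fetal sarcomere isoforms alone. Of its 13 genes, all tested, 6 were below 0 and the median averaged log2 fold change was 0.03. Of 13 genes of the adult list, all tested, 10 were below 0 and the median was -0.10. Within the slow or fetal list, Myh7b, a slow myosin heavy chain, was at -0.25 (SE 0.10), Nppa, the atrial natriuretic peptide gene, at 0.57 (SE 0.26), and Acta1 at the value above. Within the adult list, Ckm, muscle creatine kinase, was at -0.42 (SE 0.14), Myl3, the ventricular essential light chain, at -0.23 (SE 0.08), and Myom2, an M-band protein, at 0.32 (SE 0.11).

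Nppa is also a marker of atrial cells. Beside its average of 0.57, its log2 fold change was 0.02 in females (SE 0.35) and 1.11 in males (SE 0.38). The 8 atrial markers summed to 65.5 to 103 CPM in PGR_F and 51.0 to 142 CPM in Con_F, and to 37.7 to 130 CPM in PGR_M and 32.3 to 39.6 CPM in Con_M. The sum averaged 78.1 CPM in PGR_F and 88.0 CPM in Con_F, and 94.4 CPM in PGR_M and 35.2 CPM in Con_M, and the groups of each sex overlapped. Most of it was Fgf12, a growth factor homologue, with 56.9 ± 15.9 CPM in PGR_F (SD, n = 3) and 66.2 ± 39.7 CPM in Con_F (n = 4), and 70.7 ± 43.3 CPM in PGR_M and 20.3 ± 3.51 CPM in Con_M (n = 3 each). Myl7, the atrial regulatory light chain, had 0.917 CPM in PGR_F and 0.707 CPM in Con_F, and 0.555 CPM in PGR_M and 0.643 CPM in Con_M. In males 7 of the 8 markers, all tested, were above 0 and the median log2 fold change was 1.05. In females 3 of the 8 were above 0 and the median was -0.05. Of all genes, 49.9% were below 0 in males and 49.3% in females, and edgeR called none of the 8 in either sex. The part of atrial cells in the troponin values was not tested.

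**Figure D5:**
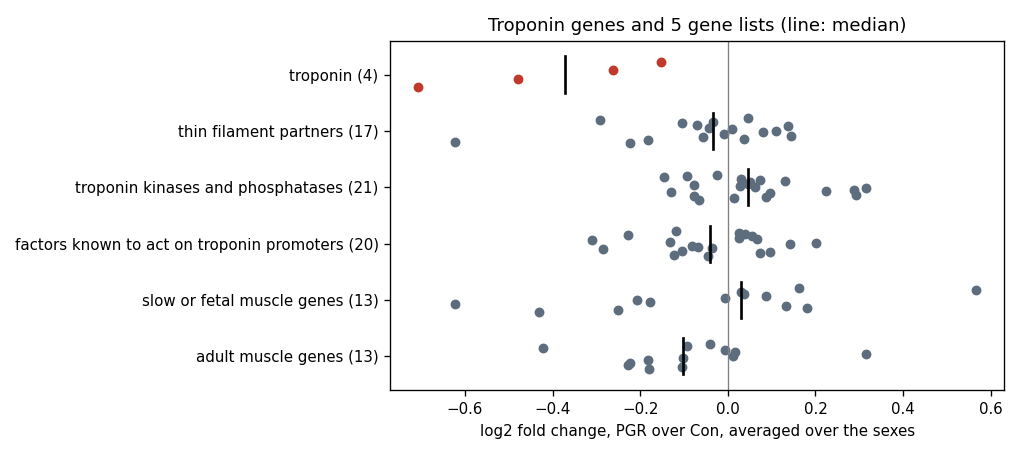
Averaged vector effect of the 4 tested troponin genes (red) and of the tested genes of 5 lists (grey), on the log2 scale, with the number tested in brackets and a line at each median. The list medians lie between -0.10 and 0.05, and the troponin genes lie from -0.71 to -0.15.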

How the data were processed

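The values are raw counts of reads in each gene as deposited by the authors, 1 column a library, in a broader and a smaller table (15645 genes); per the submitters' processing notes, STAR 2.5.3a and featureCounts 1.5.0 were used, with GRCm38 and mm10 named. Per the labels' protocols, RNA of Pcm1-sorted nuclei was depleted of ribosomal RNA and made into directional libraries. The length listed for a gene, per the file headers, equalled its span in all 55536 genes. The name of the deposited table marks reverse-strand counting; the treatment of reads in genes that overlap on 1 strand is not given in the sources used.

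The broader table was analysed with edgeR 4.0.16 in R 4.3.3. filterByExpr with the 4 groups kept 16125 genes, libraries were scaled with TMM, and 1 robust quasi-likelihood fit of the 13 libraries, with a mean for each of the 4 groups, gave 6 contrasts. P-values were adjusted over the 16125 genes by Benjamini-Hochberg, with a threshold of 0.05. Standard errors came from the F statistics, and log2 CPM used a prior count of 2. Alternatives were DESeq2 1.42.0, limma-voom (limma 3.58.1), other size factors, no filter, the smaller table, the 2 groups alone, the replicate number as a block and each library left out. The edgeR fit was run on simulated counts with 100 genes changed by a log2 fold of 1 and 100 by 2. In the averaged comparison it called 95% and 99% of them, with 14 false calls among 16003 genes. Smaller folds, such as those of the troponin genes, were not simulated.

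The members, lists, tests and named genes were chosen with earlier results of these data known. Named were the members, the other troponin genes, the adjacent genes, the 3 genes of each list with the smallest p in the averaged comparison, and the 3 genes most correlated with each member at a mean log2 CPM of at least 1. Adjacent genes too low to test, or far from their member, were left out of the text, and 1 of the genes most like Tnnc1 is not reported here. Symbols were matched to GENCODE M21, and 55499 of 55536 genes had the same coordinates there.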

Additional observations from a re-analysis of the deposited data

How the results depend on the processing

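For the 4 troponin genes the averaged vector effect stayed below 0 under every alternative run. The number called in females was 1 (Tnnt1) with DESeq2 and 1 (Tnnt1) with no filter on low counts, and 0 to 1 with 1 library left out, the 1 being without Con_F 4. Averaged over the sexes it was 2 with DESeq2, 1 with no filter, and 0 to 2 with 1 library left out, the 2 again being without Con_F 4. The number of all genes called in the average moved from 1 to 339 with DESeq2, 146 with no filter, 338 without Con_F 4 and 34 without PGR_F 4, and the cause was not tested. Values near 0 changed sign. The difference between the sexes was 0.033 for Tnnt1 with the replicate block and -0.017 for Tnnc1 with no filter, and the Con_F over Con_M value of Tnnt2 was -0.010 with limma-voom and -0.012 with the replicate block. With 1 library left out, the difference between the sexes ran from -0.16 to 0.092 for Tnnt1, -0.20 to 0.0054 for Tnnt2 and -0.090 to 0.14 for Tnnc1. PGR_F over PGR_M ran from -0.037 to 0.18 for Tnnt1 and -0.041 to 0.17 for Tnni3. Con_F over Con_M ran from -0.0055 to 0.23 for Tnnt1, -0.11 to 0.10 for Tnnt2 and -0.043 to 0.18 for Tnnc1. In males the vector effect ran from -0.32 to -0.11 for Tnni3 and -0.15 to -0.046 for Tnnt2, and in females from -0.30 to -0.090 for Tnnt2. The averaged effect of Tnnt3 ran from -0.17 to 0.24, the lowest without PGR_F 2. Replicate numbers showed no pairing of PGR with Con libraries within a sex, where deviations of same-numbered libraries correlated at -0.25 to 0.05. No PGR library correlated best with the Con library of its own number. Female and male libraries of the same number were not compared, and so few pairs cannot settle whether libraries were paired. With the replicate block 0 troponin genes were called in each of the 6 comparisons. Tnni1 is limited by its low counts of 0 to 7. These did not follow depth, with 0 counts in Con_M 1 (86.3 M in total) and 7 in Con_M 3 (33.3 M).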
